A study of Homo sapiens with 4 samples.

Results

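The line-specific part of the response to JQ1 was described as a difference, D, between the responses of SU-DHL-5 and Toledo. The response of a gene in a line was the log2 ratio of its level with JQ1 to its level with DMSO, in RPKM (reads scaled for gene length and library depth) with 0.1 added to each, and D was the response in Toledo minus the response in SU-DHL-5. Genes entered when their mean level in DMSO was at least 1 RPKM in both lines, which 8509 of 41507 genes were. Of the others, 611 reached 1 RPKM in SU-DHL-5 alone and 958 in Toledo alone, and were not compared.

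SU-DHL-5 and Toledo are established lines of diffuse large B-cell lymphoma. The groups were SU-DHL-5 with DMSO, SU-DHL-5 with JQ1, Toledo with DMSO and Toledo with JQ1, where DMSO was the vehicle, JQ1 was given at 1 µM and the labels give 6 h of treatment for all 4. The sources used here do not give a single time, and the labels were followed. Each group was 1 sample with 2 libraries, whose difference is not described, so the libraries were averaged and counted as 1 replicate. No test and no p-value is given, and the levels of both libraries stand beside the differences of most genes named by rule. The recovered depth was 14617583 to 17679831 mapped reads per library.

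JQ1 occupies the acetyl-lysine pockets of the BET proteins and displaces them from acetylated chromatin. Genes near large clusters of acetylated enhancers, often the identity genes of a cell type, are known to be sensitive to this displacement. Release of the elongation kinase P-TEFb from its inhibitor HEXIM1 is known to raise the HEXIM1 transcript, which is used as a marker of exposure to BET inhibitors.

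All 10 B-cell markers, among them MS4A1, CD79A, CD79B and PAX5, were compared, and each was at 1 RPKM or more in every library. Their summed level was 1118 and 994 RPKM in the DMSO libraries of SU-DHL-5 and 1052 and 998 RPKM in those of Toledo, and with JQ1 703 and 696 RPKM and 665 and 685 RPKM. Of 16 markers of T and NK cells none was compared. Their summed level in DMSO was 13.3 and 13.0 RPKM in SU-DHL-5, mostly CD247, and 1.59 and 1.32 RPKM in Toledo, mostly PRF1, with 11 or 12 of the 16 listed at 0. With JQ1 it was 5.10 and 4.89 RPKM in SU-DHL-5 and 0.158 and 0.0542 RPKM in Toledo. Myeloid markers summed to 1.35 RPKM at most. Markers of fibroblasts, epithelium and endothelium went from 5.76 and 5.16 RPKM, mostly DCN, to 0.784 and 0.623 RPKM with JQ1 in SU-DHL-5, and from 2.29 and 2.73 RPKM, mostly COL1A1, to 0.251 and 0.397 RPKM in Toledo. The myeloid sum went from 1.32 and 1.35 RPKM to 0.377 and 0.221 RPKM with JQ1 in SU-DHL-5. In Toledo it was 0.118 and 0.298 RPKM with DMSO and 0.164 and 0.103 RPKM with JQ1, so its libraries overlapped. Apart from the myeloid sum of Toledo, these low sums fell by larger factors than the B-cell sum. The samples are cell lines, and in SU-DHL-5 with DMSO each low sum came mostly from 1 gene, LYZ for the myeloid sum. These sums are therefore not read as other cell types. Bulk levels do not separate the number of cells from the RNA per cell, and why the sums fell was not tested.

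The exposure marker HEXIM1 rose alike in the lines. In SU-DHL-5 it went from 4.35 and 3.89 RPKM with DMSO to 22.4 and 22.9 RPKM with JQ1. The libraries of Toledo held 4.04 and 3.94 RPKM without JQ1, then 23.9 and 24.5 RPKM with it, for a D of 0.14. Every JQ1 library lay far above every DMSO library in each line. The ratios of single libraries, 2.336 to 2.530 in SU-DHL-5 against 2.534 to 2.609 in Toledo, nearly met at their ends but did not overlap. IQGAP3, a scaffold that binds small GTPases, had a D of 0.81 from a response of -0.89 in SU-DHL-5 against -0.08 in Toledo, short of the 2-fold limit used below.

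A gene was called when D was at least 1 or at most -1, a 2-fold difference between the responses, and when the 4 ratios of a JQ1 to a DMSO library in one line all lay above the 4 in the other. This rule called 59 genes as higher in Toledo (0.693% of those compared) and 97 as lower in Toledo (1.14%), 156 in either direction (1.83%). Since D chose these genes, the counts are a description. The median response of SU-DHL-5 was 0.02 and that of Toledo -0.06, for a median D of -0.10. With each line centred on its median, the counts became 74 higher and 74 lower, so the excess of genes lower in Toledo rests on the scaling. The SD of D across genes was 0.36. For comparison, DMSO library 2 set against DMSO library 1 in the same way gave an SD of 0.26 and passed the size limit for 5 and 16 genes, and JQ1 library 2 against library 1 an SD of 0.22, with 10 and 13 genes.

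**Figure D1:**
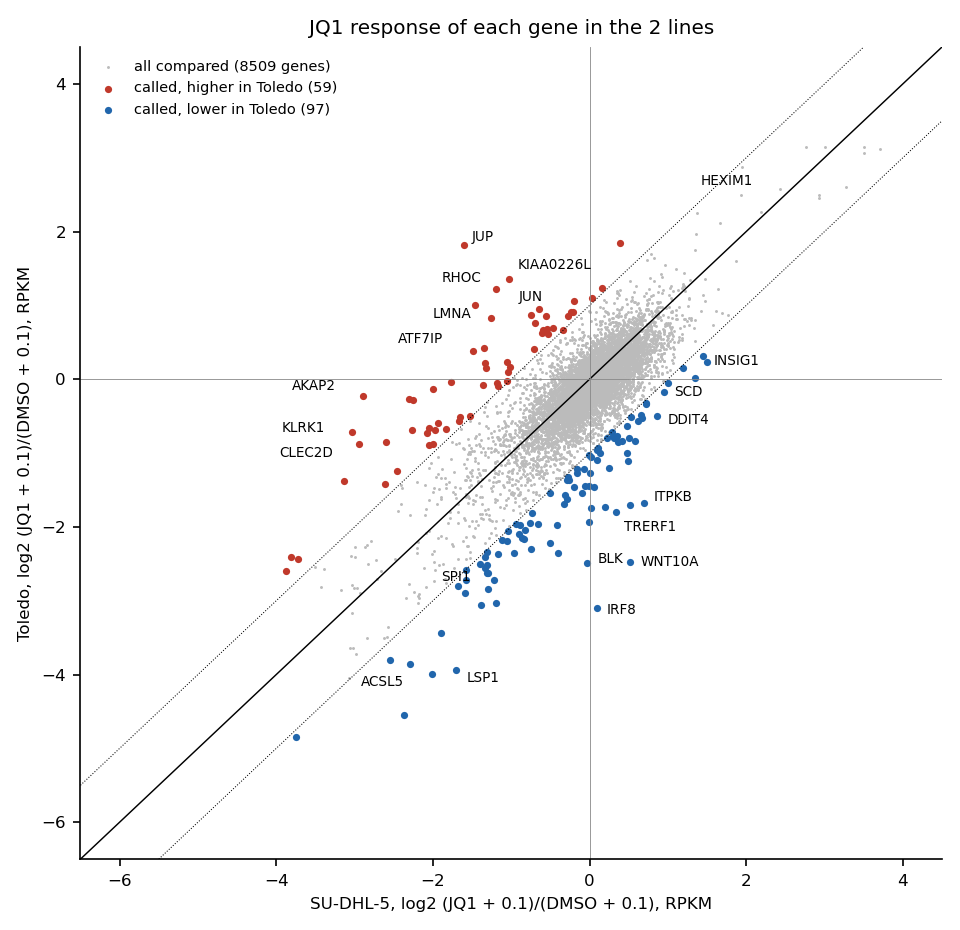
Response to JQ1 of the 8509 genes in SU-DHL-5 (horizontal axis) and Toledo (vertical axis), as log2 ratios of JQ1 to DMSO with 0.1 RPKM added. The solid line marks equal responses and the dotted lines a D of 1 and -1. Red points are the 59 genes called higher and blue points the 97 called lower in Toledo.

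Genes just inside the limit were TREX1 (D of 1.01) and FCRLA (-1.02), and genes just outside it were ACAT2 (0.999) and HDAC8 (-0.992), so the limit divides a continuum. A 1.5-fold limit would call 234 genes higher (2.75%) and 552 lower (6.49%). Of the called genes, 45 of 59 and 67 of 97 reached 100 reads in a library of both lines. The median level of genes called lower in Toledo was 3.98 RPKM with DMSO and 1.01 RPKM with JQ1 in Toledo, against 7.32 and 6.71 RPKM in SU-DHL-5. The genes called higher went from a median of 5.76 to 2.54 RPKM in SU-DHL-5 and from 4.52 to 5.30 RPKM in Toledo. Most of the line-specific part was thus a loss in one line that the other did not share or shared to a smaller extent.

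A response of at least 1.5-fold is called a rise or a fall below. Of all genes compared, 682 (8.02%) rose and 927 (10.9%) fell in SU-DHL-5, against 481 (5.65%) and 1262 (14.8%) in Toledo. Among the 97 genes lower in Toledo, 46 fell in Toledo and stayed within 1.5-fold in SU-DHL-5, 37 fell in both and further in Toledo, and 12 rose in SU-DHL-5 alone. Among the 59 genes higher in Toledo, 20 fell in SU-DHL-5 and stayed within 1.5-fold in Toledo, 17 fell in both and further in SU-DHL-5, 12 rose in Toledo alone and 10 fell in SU-DHL-5 while they rose in Toledo.

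The lowest D among the compared genes belonged to IRF8, a transcription factor of B cells and myeloid cells that acts in the germinal center (chr16:85899168-85922606). Its level in SU-DHL-5 was 47.4 and 45.8 RPKM with DMSO and 48.8 and 50.5 RPKM with JQ1. In Toledo it was 3.76 and 4.21 RPKM with DMSO and 0.388 and 0.368 RPKM with JQ1. The SU-DHL-5 libraries hardly moved, while both JQ1 libraries of Toledo lay far below its DMSO libraries. The D of IRF8 was -3.19, with library ratios of 0.04 to 0.14 in SU-DHL-5 and -3.20 to -2.98 in Toledo. The 95% exact interval of this difference from the read totals, without the 0.1 added, was -4.05 to -2.96, and such intervals cover counting error only.

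IRF8 was 1 of 25 compared genes in a list of B-cell and germinal center transcription factors, of which 4 were called lower in Toledo and 0 higher, against 1.14% and 0.693% of all genes. The median D of the list was -0.02. SPI1 (PU.1), which pairs with IRF8 on composite DNA elements, fell in both lines, from 89.6 and 82.1 RPKM to 34.3 and 35.1 RPKM in SU-DHL-5, while Toledo moved from 59.3 and 58.6 RPKM to 10.8 and 9.73 RPKM, with a D of -1.20. MEF2C, a factor of B-cell proliferation, was at 9.24 and 9.76 RPKM with DMSO and 9.06 and 9.06 RPKM with JQ1 in SU-DHL-5, and fell from 3.33 and 4.77 RPKM to 1.65 and 1.71 RPKM in Toledo (D of -1.15, and -0.85 with 1 RPKM added). POU2F2 (OCT2), which binds octamer elements of immunoglobulin genes, was at 30.7 and 27.7 RPKM with DMSO and 32.1 and 30.6 RPKM with JQ1 in SU-DHL-5, and fell from 1.12 and 1.30 RPKM to 0.599 and 0.543 RPKM in Toledo (D of -1.07, and -0.59 with 1 RPKM added). With 1 RPKM added, only IRF8 and SPI1 kept a D of -1 or less. All 4 factors were lower in Toledo than in SU-DHL-5 before treatment, POU2F2 and IRF8 by the widest margins. The rest of the list leaned both ways, from IKZF1 with a D of -0.65 to PAX5, the factor that holds B-cell identity, with a D of 0.91 (a response of -0.64 in SU-DHL-5 against 0.27 in Toledo). Neither was called.

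Of 29 compared genes of proximal B-cell receptor signaling, 15 fell in SU-DHL-5 (10.9% of all genes did) and 15 fell in Toledo (14.8%), and the median D was -0.05. The 1 called gene (1.83% of all genes were called) was BLK, a SRC family kinase of B cells. BLK stood at 15.7 and 15.9 RPKM with DMSO and 15.6 and 15.3 RPKM with JQ1 in SU-DHL-5, while in Toledo it fell from 18.6 and 18.7 RPKM to 3.02 and 3.46 RPKM. Its D was -2.46, and here the DMSO levels of the lines were close. Of the other SRC family kinases, LYN and FYN of the list had a D of 0.11 and -0.06. LCK, outside the list and chosen after its values were seen, was called the other way (D of 1.28), with a fall from 20.5 and 18.4 RPKM to 1.67 and 1.09 RPKM in SU-DHL-5 against 2.01 and 1.82 RPKM to 0.196 and 0.346 RPKM in Toledo. ITPKB, which phosphorylates inositol trisphosphate downstream of the receptor, rose in SU-DHL-5 from 8.03 and 7.98 RPKM to 13.6 and 12.3 RPKM and fell in Toledo from 1.19 and 1.44 RPKM to 0.384 and 0.299 RPKM. With a D of -2.37, and -1.42 with 1 RPKM added, it was the 1 gene that rose in SU-DHL-5 and fell in Toledo by the rule for opposite responses given below.

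Among 18 compared B-cell surface antigens, 13 fell in SU-DHL-5 (10.9% of all genes did) against 11 in Toledo (14.8%), and 3 were called, all lower in Toledo (1.14% of all genes were). TNFRSF17 (BCMA) and TNFRSF13C (the BAFF receptor), both receptors for survival factors of B cells, had D values of -2.19 and -1.94, and rest on fewer than 100 reads in the higher library of a line. FCRLA, an Fc receptor-like protein of germinal center B cells, fell from 53.5 and 48.0 RPKM to 16.3 and 17.7 RPKM in SU-DHL-5, while Toledo moved from 138 and 150.3 RPKM to 23.8 and 23.8 RPKM (D of -1.02, and -0.93 with each line centred on its median). In spite of these 3, the median D of the list was 0.30, since MS4A1 (CD20), CD22 and FCRL5 fell further in SU-DHL-5, with D values of 0.52, 0.35 and 0.84.

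WNT10A, a secreted WNT ligand, had the second lowest D, -2.99. It was at 15.7 and 24.7 RPKM with DMSO and 28.7 and 29.4 RPKM with JQ1 in SU-DHL-5, where the DMSO libraries differ, and fell in Toledo from 5.38 and 5.47 RPKM to 0.984 and 0.809 RPKM. AK4, a mitochondrial adenylate kinase, stayed at 18.0 to 19.8 RPKM in the libraries of SU-DHL-5 and fell from 1.88 and 2.75 RPKM to 0.545 and 0.515 RPKM in Toledo (D of -1.93, and -1.11 with 1 RPKM added). TRERF1, a zinc finger regulator of transcription, showed the same pattern with a D of -2.14, and -1.09 with 1 RPKM added (SU-DHL-5 3.09 and 2.70 RPKM to 3.63 and 3.73 RPKM, Toledo 1.21 and 1.40 RPKM to 0.251 and 0.356 RPKM). For these genes the line with the lower starting level lost more.

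LSP1, an actin-binding protein of leukocytes, fell in both lines, from 32.2 and 43.1 RPKM to 12.8 and 10.2 RPKM in SU-DHL-5, while Toledo moved from 10.5 and 10.6 RPKM to 0.522 and 0.669 RPKM (D of -2.23). ACSL5, which activates fatty acids, fell from 15.0 and 12.3 RPKM to 3.22 and 3.40 RPKM and from 9.05 and 9.64 RPKM to 0.443 and 0.546 RPKM (D of -1.98). HSH2D, an adaptor of hematopoietic cells, fell from 6.97 and 6.65 RPKM to 2.84 and 2.98 RPKM and from 21.2 and 22.1 RPKM to 2.55 and 2.57 RPKM (D of -1.84). Here and below, where no line is named, SU-DHL-5 is given first. In this trio the direction was shared and the size was not. SH3TC1 (-1.56, SU-DHL-5 10.1 and 11.0 RPKM to 2.04 and 2.09 RPKM, Toledo 7.95 and 7.47 RPKM to 0.431 and 0.449 RPKM), SRGN, the core protein of granule proteoglycans (-1.55, SU-DHL-5 45.9 and 51.5 RPKM to 29.3 and 28.5 RPKM, Toledo 3.52 and 5.01 RPKM to 0.784 and 0.791 RPKM), and IFI27L2 (-1.95, SU-DHL-5 38.6 and 46.8 RPKM to 32.3 and 32.4 RPKM, Toledo 19.9 and 15.4 RPKM to 2.90 and 3.85 RPKM) completed the 12 lowest D values among genes that reached 100 reads in a library of both lines. Where a level was near or below 1 RPKM in either line, D depends on the added constant. With 1 RPKM added, D was -1.94 for IRF8, -1.23 for LSP1 and -1.03 for ACSL5, and -0.68 for SH3TC1 and -0.83 for SRGN, which lost their calls.

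**Figure D2:**
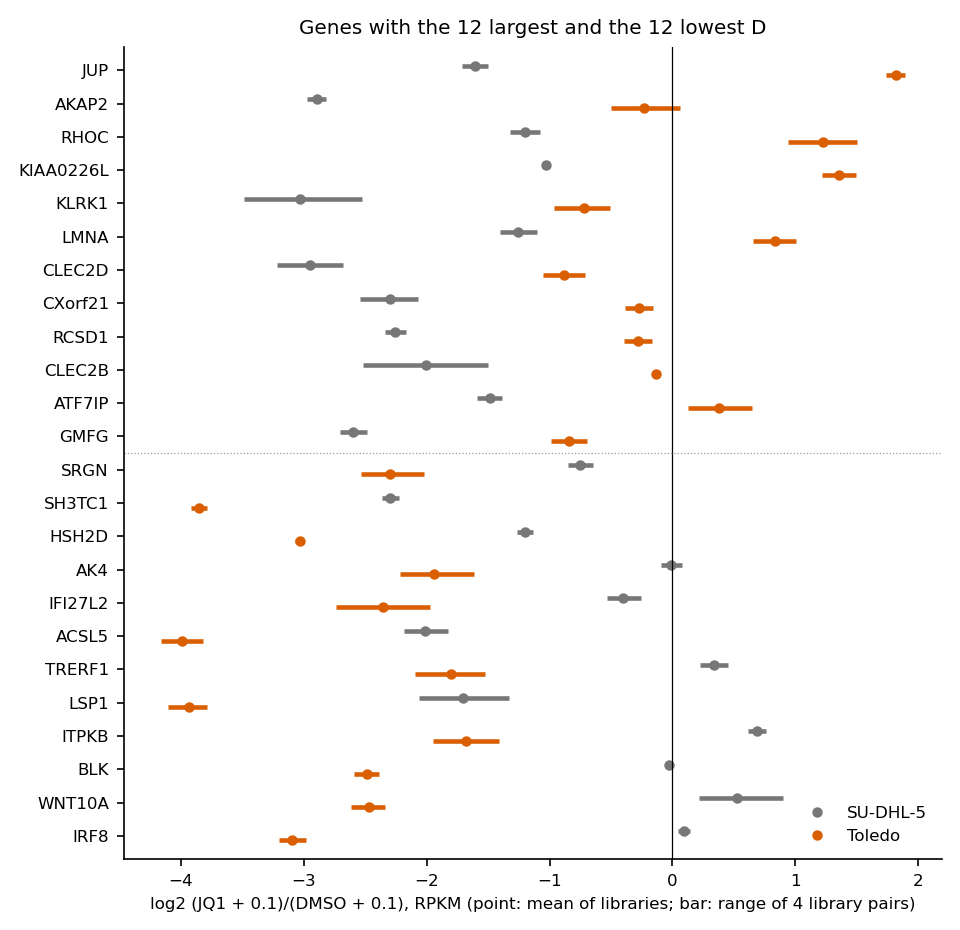
Responses of the genes with the 12 largest and the 12 lowest D among those that reached 100 reads in a library of both lines. Points are log2 ratios of library means in SU-DHL-5 (grey) and Toledo (orange), and bars span the 4 ratios of single libraries. The bars of the lines do not overlap for any of these genes, which the choice of genes required.

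The largest D was that of JUP, which encodes plakoglobin, a catenin of desmosomes and adherens junctions (chr17:41754607-41786712). It fell in SU-DHL-5 from 30.0 and 28.5 RPKM to 9.97 and 9.09 RPKM and rose in Toledo from 18.1 and 18.0 RPKM to 60.6 and 67.0 RPKM. Libraries of the same sample lay close together and the samples lay far apart, with a 3.05-fold fall in one line and a 3.52-fold rise in the other. The D was 3.42, with an interval of 3.32 to 3.55 from the read totals.

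JUP was 1 of 10 genes that fell in SU-DHL-5 and rose in Toledo by at least 1.5-fold, with both JQ1 libraries beyond both DMSO libraries in each line (0.118% of genes compared, against 1 gene, 0.0118%, in the reverse direction and 11, 0.129%, in all). RHOC, which acts on the actin cytoskeleton, fell from 5.38 and 5.56 RPKM to 2.17 and 2.49 RPKM in SU-DHL-5, but rose from 1.57 and 1.82 RPKM to 4.63 and 3.59 RPKM in Toledo (D of 2.43). KIAA0226L, a regulator of autophagosome maturation, fell from 5.74 and 5.62 RPKM to 2.77 and 2.70 RPKM in SU-DHL-5. In Toledo it started at 96.4 and 108 RPKM and rose to 271 and 251 RPKM (D of 2.38). JQ1 thus reversed the order of the lines for RHOC and widened it for KIAA0226L. LMNA, which encodes lamins A and C of the nuclear envelope, went from 1.47 and 1.65 RPKM to 0.561 and 0.633 RPKM and from 1.10 and 1.17 RPKM to 1.90 and 2.31 RPKM (D of 2.09, and 1.22 with 1 RPKM added). JUN, a subunit of AP-1, went from 3.20 and 3.28 RPKM to 2.04 and 1.73 RPKM and from 6.25 and 6.36 RPKM to 11.6 and 11.6 RPKM (D of 1.62). For these genes the libraries of a sample differed far less than the samples did.

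The other 5 included SOCS1, a feedback inhibitor of JAK signaling, with a D of 1.24. The rest were chosen after their values were seen, and were CD69, an early activation antigen of lymphocytes (1.60), IFI30, a lysosomal thiol reductase of antigen processing (1.46), PPP1R16B, a regulatory subunit of protein phosphatase 1 (1.26, and 0.98 in library 2 alone), and FXYD1, a regulator of the sodium pump (2.46). SOCS1 went from 46.5 and 45.2 RPKM to 29.7 and 30.3 RPKM in SU-DHL-5, while Toledo moved from 27.8 and 27.8 RPKM to 42.6 and 43.3 RPKM, so that the levels of the lines crossed. IFI30 fell in SU-DHL-5 from 221 and 184 RPKM and rose in Toledo from 2.42 and 2.16 RPKM, so that its rise in Toledo remained at a low level. FXYD1 was near 1 RPKM in DMSO in both lines and rests on 14 to 86 reads per sample, with a D of 1.30 when 1 RPKM was added.

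**Figure D3:**
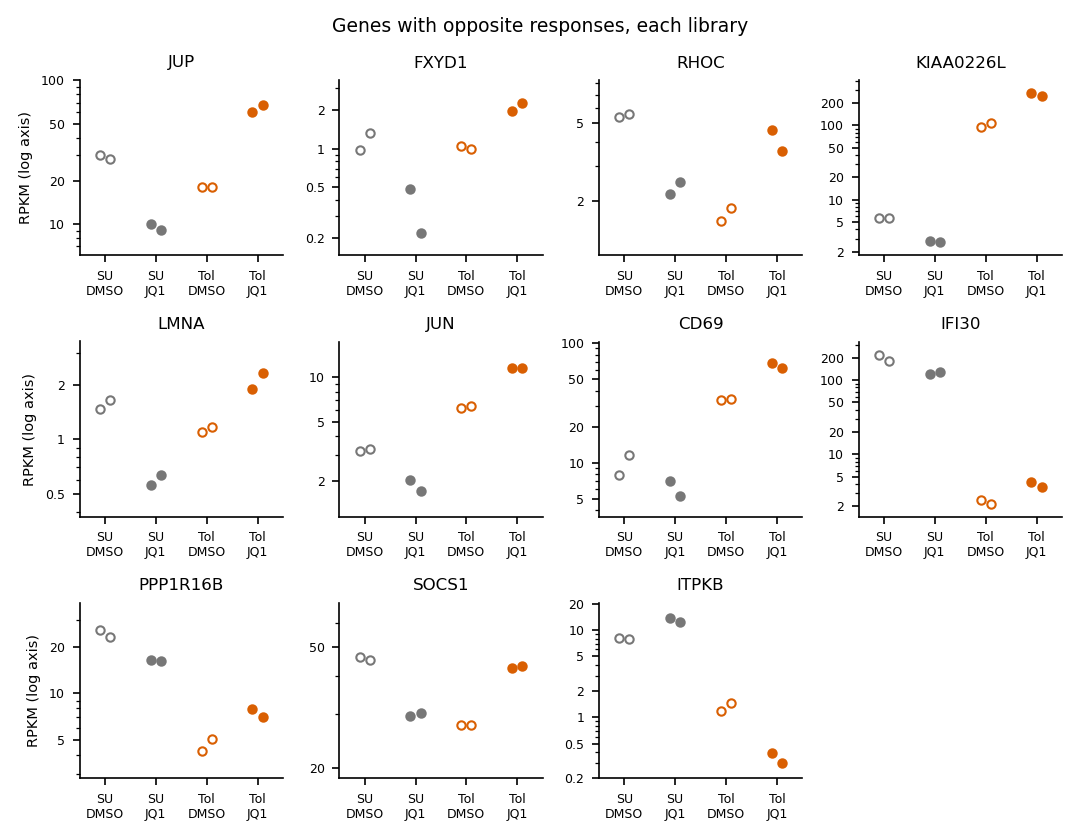
RPKM on a log axis of the 11 genes with opposite responses, in each library. Grey points are SU-DHL-5 (SU) and orange points Toledo (Tol), open for DMSO and filled for JQ1. In 10 panels grey falls and orange rises with JQ1, and ITPKB shows the reverse.

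Some genes with a large D fell further in SU-DHL-5 than in Toledo, where they were more abundant. RCSD1, a protein that binds actin capping protein, fell from 5.89 and 6.17 RPKM to 1.14 and 1.23 RPKM in SU-DHL-5, but was at 130.1 and 149 RPKM with DMSO and 116 and 114 RPKM with JQ1 in Toledo (D of 1.97). GMFG, which debranches actin filaments, fell from 26.7 and 30.7 RPKM to 4.61 and 4.69 RPKM and from 168 and 143 RPKM to 84.5 and 88.4 RPKM (D of 1.75). CXorf21, an adaptor of endosomal Toll-like receptor signaling, fell from 5.25 and 4.80 RPKM to 0.818 and 1.07 RPKM in SU-DHL-5, but lay between 27.6 and 36.0 RPKM in Toledo (D of 2.03). TCL1A, a coactivator of AKT, fell from 43.0 and 43.8 RPKM to 11.1 and 10.7 RPKM and from 495 and 459 RPKM to 285 and 306 RPKM (D of 1.29). It was the 1 called gene of 23 compared in the PI3K-AKT list (0.693% of all genes were called higher). ATF7IP, a partner of the histone methyltransferase SETDB1, differed in another way, since it started at a like level of 7.11 and 7.48 RPKM in SU-DHL-5 and 5.01 and 6.69 RPKM in Toledo and fell in SU-DHL-5 alone, to 2.66 and 2.42 RPKM (D of 1.86). AKAP2, an anchor of protein kinase A, had a D of 2.67, and 0.91 with 1 RPKM added, since SU-DHL-5 kept only 0.102 and 0.0867 RPKM with JQ1. Its reads may be shared with the overlapping readthrough gene PALM2-AKAP2.

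The widening seen for these genes was examined over all genes, with the starting ratio of the lines taken from one DMSO library of each line and D from the other. For the 49 or 50 genes more than 8-fold higher in SU-DHL-5, according to the library used, the median D was -0.34 or -0.35. For the 38 or 43 genes more than 8-fold higher in Toledo it was 0.24 or 0.22, and for genes within 2-fold -0.16 or -0.04. In the classes from 2 to 8-fold it lay between -0.17 and 0.08, so the largest leans toward the line with the higher level were beyond 8-fold. Of the 97 genes called lower in Toledo, 64 were more abundant in SU-DHL-5 with DMSO, and 33 were at least 2-fold more abundant there against 15 in Toledo. Of the 59 called higher in Toledo, 36 were also more abundant in SU-DHL-5, and 22 at least 2-fold against 17 in Toledo. Of all 8509 genes, 4410 were more abundant in SU-DHL-5, and 926 at least 2-fold against 843 in Toledo. Since D contains the DMSO levels, nothing is read from these counts. The libraries of a sample may share their RNA, so they were not taken as independent. The SD of the log2 ratio of Toledo to SU-DHL-5 was 0.92 with DMSO and 0.98 with JQ1, and 1769 and 1883 genes differed more than 2-fold between the lines. These SDs were 0.93 and 0.98 in library 1 alone, and 0.93 and 0.99 in library 2 alone. The filter set a minimum level with DMSO but not with JQ1, which can widen the spread with JQ1. No change in likeness is therefore read from these values.

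Some called genes lie close together. Of the genes called higher in Toledo, 13 lay within 1 Mb of another, in 5 groups of at most 4 genes. Among those called lower, 25 did so, in 11 groups that also held at most 4 genes. These counts were not tested, and 1 group is described here. CLEC2D, CD69, CLEC2B and KLRK1, all called higher in Toledo, are neighbours in the cluster of C-type lectin genes on chromosome 12 (chr12:9669708-10390054). They were singled out after their values were seen. CLEC2D, a ligand of the NK receptor KLRB1, fell in SU-DHL-5 from 4.68 and 5.69 RPKM to 0.644 and 0.523 RPKM and in Toledo from 34.2 and 39.3 RPKM to 20.8 and 18.9 RPKM (D of 2.07, and 1.11 with 1 RPKM added). CLEC2B, a ligand of an activating NK receptor, fell from 3.81 and 5.29 RPKM to 1.28 and 0.839 RPKM in SU-DHL-5, but was at 17.0 and 16.7 RPKM with DMSO and 15.4 and 15.2 RPKM with JQ1 in Toledo (D of 1.87). CD69 rose in Toledo from 33.5 and 33.9 RPKM to 68.6 and 61.4 RPKM and went from 7.94 and 11.5 RPKM to 7.02 and 5.31 RPKM in SU-DHL-5, where the libraries are spread. All 4 were more abundant in Toledo before treatment. KLRK1, the receptor NKG2D, had a D of 2.31, and 1.28 with 1 RPKM added (SU-DHL-5 5.85 and 3.78 RPKM to 0.572 and 0.431 RPKM, Toledo 15.4 and 14.8 RPKM to 10.4 and 7.84 RPKM), but its reads may be shared with the readthrough gene KLRC4-KLRK1, and its value is uncertain. Other genes of this stretch and at its end that passed the filter differed less, with a D of 0.41 for GABARAPL1 and 0.26 for KLRC4, neither of them called.

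**Figure D4:**
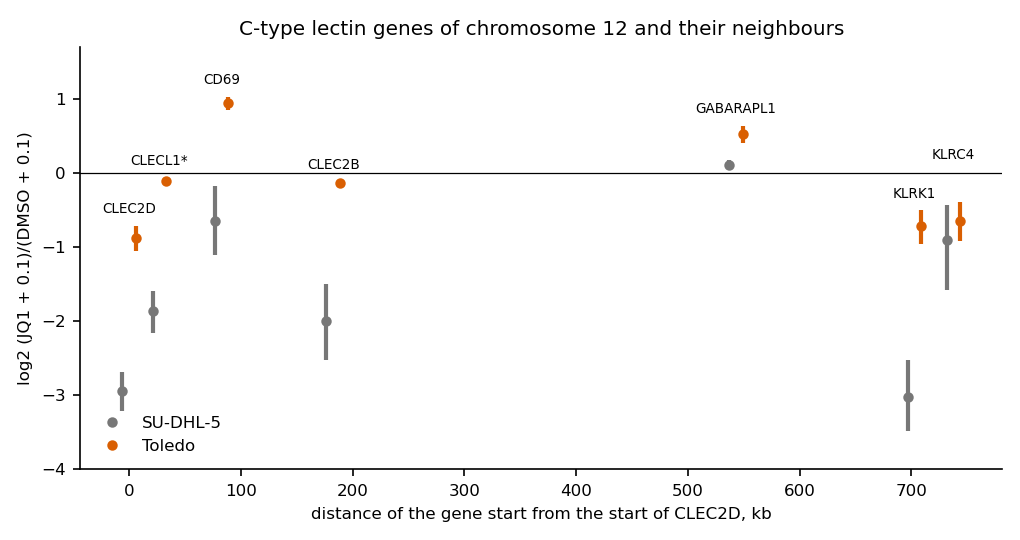
Responses of genes of the C-type lectin cluster of chromosome 12 against the distance of each gene's start from that of CLEC2D, in kb. Points are log2 ratios of library means in SU-DHL-5 (grey) and Toledo (orange), bars span the 4 ratios of single libraries, and a star marks CLECL1, which was under 1 RPKM with DMSO in SU-DHL-5. Genes with a mean under 0.3 RPKM with DMSO in a line, such as CLEC7A, were left out after their values were seen. Genes under 1 RPKM in every DMSO library, such as KLRC3, and the readthrough gene KLRC4-KLRK1 were also left out. The response of CLEC2D, CD69, CLEC2B and KLRK1 is higher in Toledo, and that of KLRC4 is not set apart.

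Gene lists for pathways of the B cell and of BET biology gave called genes in 13 of 31 cases. The list with the most called genes was cholesterol and fatty acid synthesis, in which 5 of 31 compared genes were called lower in Toledo (1.14% of all genes were) and 0 higher. Its median D was -0.26, against -0.10 over all genes, and 9 of its genes had a response at least 1.5-fold lower in Toledo (29.0%, against 6.59% of all genes compared). INSIG1, which holds the sterol sensor in the endoplasmic reticulum, rose in SU-DHL-5 from 59.4 and 67.7 RPKM to 176 and 171 RPKM and went from 43.0 and 46.8 RPKM to 57.1 and 54.3 RPKM in Toledo (D of -1.14). SCD, which desaturates stearoyl-CoA, rose from 40.1 and 34.4 RPKM to 70.7 and 72.9 RPKM in SU-DHL-5, but was at 16.7 and 19.4 RPKM with DMSO and 16.3 and 15.6 RPKM with JQ1 in Toledo (D of -1.12, and -0.85 in library 1 of each sample alone). FASN, the fatty acid synthase, was at 19.0 and 13.0 RPKM with DMSO and 22.0 and 22.8 RPKM with JQ1 in SU-DHL-5, and fell in Toledo from 27.6 and 30.3 RPKM to 18.5 and 18.6 RPKM (D of -1.12, and -0.78 in library 1 of each sample alone). So the first pair differed mostly by a rise in SU-DHL-5, and FASN by its responses in both lines, 0.48 in SU-DHL-5 against -0.64 in Toledo. FADS2, a fatty acid desaturase that the rule for named genes did not take, had a D of -1.07. Genes of the same list with little difference were SREBF2, which drives cholesterol genes (0.11), and SQLE, an enzyme of cholesterol synthesis (0.24), while SREBF1, which drives fatty acid genes, had a D of -0.82. In the list, 0 genes had a response at least 1.5-fold higher in Toledo (2.88% of all genes did). However, the list leaves out ACAT2, another enzyme of cholesterol synthesis, which went the other way. Its D was 0.999, from a response of -1.31 in SU-DHL-5 against -0.31 in Toledo, and it was not called.

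Interferon-stimulated genes were called in both directions, 1 higher and 2 lower among 21 compared (0.693% and 1.14% of all genes), with a median D of 0.11. MX1, an antiviral GTPase, fell further in SU-DHL-5, from 4.54 and 4.26 RPKM to 0.897 and 0.540 RPKM, than in Toledo, from 10.8 and 10.9 RPKM to 4.10 and 4.97 RPKM (D of 1.22, and 0.55 with 1 RPKM added). BST2 (tetherin) fell in Toledo from 31.5 and 27.3 RPKM to 9.29 and 10.8 RPKM and went from 117 and 108 RPKM to 79.2 and 79.6 RPKM in SU-DHL-5 (D of -1.04, -0.95 with each line centred on its median and -0.97 with 1 RPKM added). DTX3L, a ubiquitin ligase, had a D of -1.33, and -0.47 with 1 RPKM added (SU-DHL-5 19.1 and 17.6 RPKM to 7.18 and 7.64 RPKM, Toledo 3.54 and 4.42 RPKM to 0.512 and 0.612 RPKM). The list therefore had no shared direction, and each of its calls was lost under an alternative.

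Letters of the interferon-stimulated response element type, GAAA repeated after 2 other bases on either strand, were looked for in RefSeq promoters of build GRCh38.p14, 250 bases before to 50 bases after each gene start. They were in 10 of the 17 promoters found for the 21 compared genes of that list, in 2.91% of the 7207 promoters found for compared genes and in 3.65% of all 27305. Among the genes called higher in Toledo, 50 of 59 had a promoter in the table and 3 held the letters (6.00%). For the genes called lower, 69 of 97 had one (71.1%), too incomplete a match, so this check is void. The stretches before the RefSeq gene start of BST2 and FCRLA, called lower, and of SOCS1, called higher, are shown because the same letters stand in genes of both directions. Capitals mark the letters, with overlapping matches joined for BST2. The expression table starts FCRLA further upstream, so that its stretch lies inside the gene there. BST2 is from chr19:17405725-17405780 on the minus strand, FCRLA from chr1:161707117-161707166 on the plus strand and SOCS1 from chr16:11256288-11256337 on the minus strand.
BST2: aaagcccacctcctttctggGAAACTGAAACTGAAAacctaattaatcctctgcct
FCRLA: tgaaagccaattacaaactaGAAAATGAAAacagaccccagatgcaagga
SOCS1: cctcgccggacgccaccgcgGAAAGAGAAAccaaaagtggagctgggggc
Other letters searched on both strands were those of the E-box (CACGTG) and of the CRE and ATF4, NF-kB and SRE types. In the promoters of genes called higher, they were in 1, 1, 1 and 0 of 50, and in all compared genes in 10.9%, 4.29%, 0.402% and 0.0555%. In all 27305 promoters the shares were 7.43%, 2.90%, 0.355% and 0.0476%. A match is a description of letters and not of binding.

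Within the ERK list, 2 of 20 were called (1.83% of all genes were), JUN as above and DUSP2, a phosphatase of MAP kinases (-1.07, with fewer than 100 reads in the higher library of Toledo).

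Stress pathways held calls in both directions. DDIT4, an inhibitor of mTORC1, was at 115 and 178 RPKM with DMSO and 270.2 and 261 RPKM with JQ1 in SU-DHL-5, and at 26.8 and 32.5 RPKM and 21.8 and 20.4 RPKM in Toledo (D of -1.35). It belongs to 26 compared genes of the ATF4 response, where CTH, an enzyme of cysteine synthesis, was called higher (1.18) and the median D was 0.04, so that 2 of 26 were called against 1.83% of all genes. HSPA1A, an inducible HSP70, had a D of 1.41 (SU-DHL-5 4.80 and 3.13 RPKM to 2.94 and 2.39 RPKM, Toledo 1.30 and 1.14 RPKM to 2.61 and 1.99 RPKM) among 25 chaperones with a median D of 0.25, and its near-identical copy HSPA1B a D of 0.74, so that reads may be split between them. Among 15 histone genes, 11 rose in SU-DHL-5 (8.02% of all genes did) against 8 in Toledo (5.65%), and the 1 called was H2AFJ, a variant of H2A (-1.04, and -0.69 with 1 RPKM added, SU-DHL-5 1.18 and 1.08 RPKM to 2.56 and 2.84 RPKM, Toledo 2.44 and 1.93 RPKM to 2.35 and 2.52 RPKM). Of 18 genes of MHC class I presentation, TAPBPL, a peptide editor, was called (1.14% of all genes were called lower). It stayed between 4.05 and 4.23 RPKM in SU-DHL-5 and fell from 4.32 and 3.89 RPKM to 1.54 and 1.35 RPKM in Toledo (D of -1.44). In the list of cytokine receptors, JAK and SOCS genes, SOCS1 was the 1 call among 19 (0.693% of all genes were called higher), and the median D was -0.06.

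The other 18 lists held no called gene. Their median D was 0.26 for MHC class II (13 genes), 0.21 for NF-kB genes (20), 0.06 for ribosome biogenesis (43), 0.06 for aminoacyl-tRNA synthetases (20), 0.05 for the MYC network (10) and 0.05 for p53 targets (22). It was -0.02 for mitosis and spindle (44), -0.02 for autophagy and lysosome (39), -0.04 for RAS regulators (25), -0.11 for chromatin regulators mutated in lymphoma (13), -0.11 for the unfolded protein response and secretion (24) and -0.11 for P-TEFb, HEXIM and BET genes (11). It was -0.12 for glycolysis and pentose phosphate (28), -0.14 for oxidative phosphorylation (43), -0.14 for homing and adhesion (12), -0.16 for DNA replication (40), -0.22 for the BCL2 family (12) and -0.23 for G1 cyclins and CDKs (20). More genes fell in Toledo than in SU-DHL-5 for DNA replication (12 against 6) and for G1 cyclins and CDKs (8 against 4), as over all genes (14.8% against 10.9%). The reverse held for MHC class II (6 in Toledo against 10 in SU-DHL-5), NF-kB genes (4 against 6) and aminoacyl-tRNA synthetases (2 against 4).

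**Figure D5:**
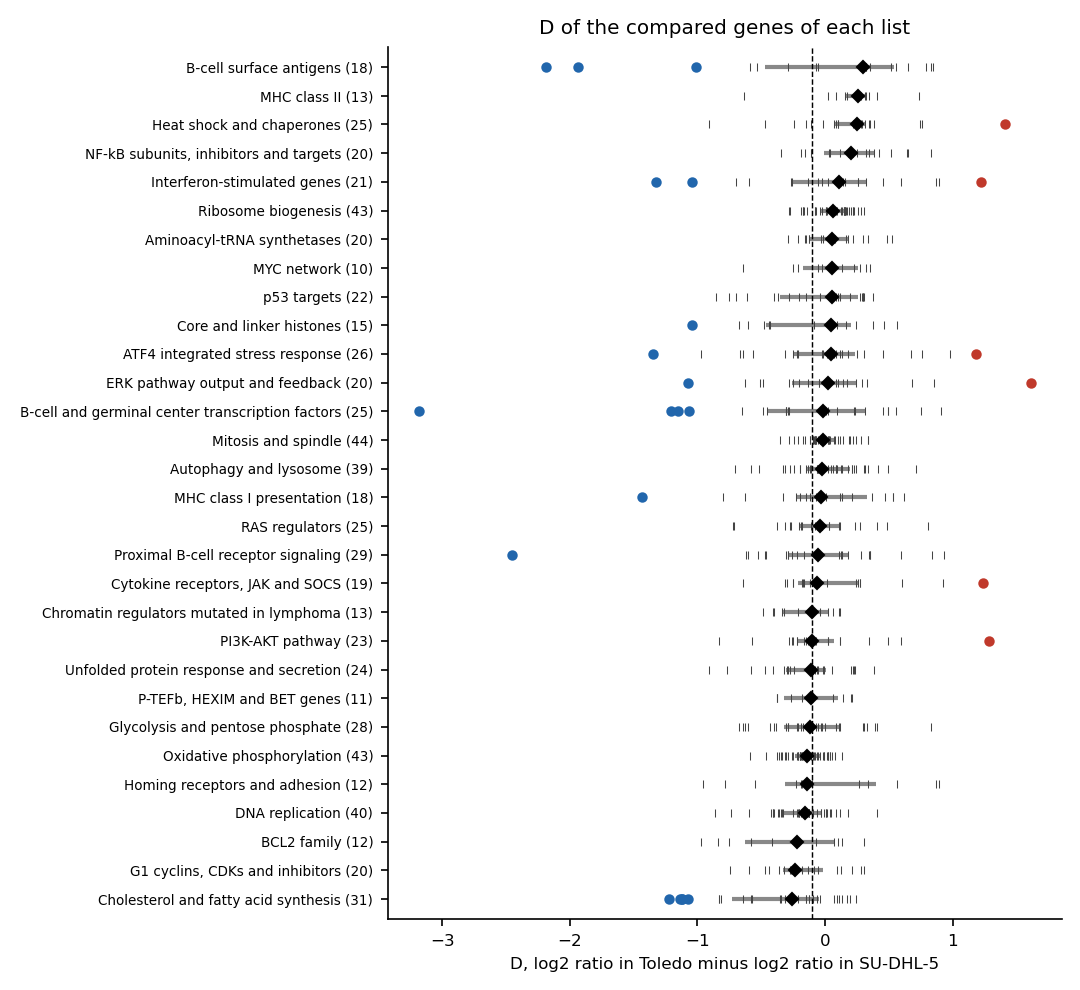
D of the compared genes of each list reported here, with the number of genes in brackets. Ticks are genes, grey bars span the quartiles, diamonds are medians, red and blue points are called genes, and the dashed line is the median D of all genes compared, -0.10. Cholesterol and fatty acid synthesis has the lowest median (-0.26) and B-cell surface antigens the highest (0.30).

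The libraries of Toledo with DMSO differed with gene length. The median log2 ratio of library 2 to library 1 was -0.15 in the tenth of compared genes with the shortest length, 339 to 1326 bases, and 0.31 in the tenth with the longest, 7020 to 23576 bases. Across the 8509 genes, which are not independent, the rank correlation of D with length was -0.07. It became -0.25 without library 1 and 0.16 without library 2 of Toledo with DMSO, so a trend of D with length cannot be read. The counts of called genes were 69 higher and 118 lower without library 1, and 76 and 97 without library 2. Without either library, no D of the 47 genes of the alternatives changed its sign or moved by over 1.5 times. It passed below the limit for H2AFJ and BST2 without library 1, and for FCRLA, POU2F2 and MEF2C without library 2.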

How the data were processed

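RNA of 4 samples, 1 for each line and treatment, was sequenced by the authors as 2 libraries each. RPKM of genes and of transcripts, as deposited, were the starting values. The submitters' processing notes name CASAVA 2.0 and the builds GRCh38 and hg38. The aligner, the counting and the annotation are not given in the sources used here. Mapped reads per library were recovered as the total at which most values of genes spanning under 6000 bases, with span taken as length, became whole reads, and gene lengths as the smallest that made all values whole within 0.002 reads, which served for filters and intervals. The median was 16252335 mapped reads. The 2 libraries of a sample were averaged (n = 1 per condition), and no test was made. Intervals are exact conditional 95% intervals of the odds ratio of the 4 read totals. The mean chi-square per gene between the 2 libraries of a sample was 2.16 to 19.6. The libraries thus differed by more than the counting error that these intervals cover.

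Named genes were the 12 with the largest and the 12 with the lowest D among compared genes that reached 100 reads in a library of both lines and had separate libraries, up to 5 of each kind of opposite response, the called gene of each list with the largest absolute D, up to 4 for the 6 lists with most called genes, and HEXIM1 and IQGAP3. Members and lists were chosen with earlier results of these data known. Alternatives varied the added constant, the filter, the scaling, the table, the cutoff and the libraries. The steps were tested on simulated data. Coordinates are on GRCh38. The results of some genes and of 1 list are not reported here. The work was done in Python 3.11.15 with scipy 1.17.1, numpy 2.4.6, matplotlib 3.10.9 and pandas 2.3.3.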

Additional observations from a re-analysis of the deposited data

Results flagged for a closer look

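In 11 genes the responses were opposite and at least 1.5-fold in each line, with both JQ1 libraries beyond both DMSO libraries in each line. The difference D, on the log2 scale, was 3.42 for JUP, 2.46 for FXYD1, 2.43 for RHOC, 2.38 for KIAA0226L, 2.09 for LMNA, 1.62 for JUN, 1.60 for CD69, 1.46 for IFI30, 1.26 for PPP1R16B and 1.24 for SOCS1, which fell in SU-DHL-5 and rose in Toledo. It was -2.37 for ITPKB, which rose in SU-DHL-5 and fell in Toledo. With 1 sample per condition, the difference between the lines was not tested for any of them.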

How the results depend on the processing

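No D changed its sign in 771 alternative values for 47 called genes, of which FXYD1, CD69, IFI30 and PPP1R16B were added after seeing the data. An absolute D of at least 1 was kept in 727 of the 771 values. Only 33 of the 47 genes kept it under every alternative with a value, and 22 of the 47 had no value at the minimum of 5 RPKM. No paired analysis was possible because a condition held only 1 sample. The counts were 59 genes called higher, 97 called lower and 11 with opposite responses. With 1 RPKM added they were 37, 44 and 7, of which 35, 37 and 7 were among the original genes. With at least 5 RPKM in DMSO they were 19, 31 and 4, as fewer genes were compared, and with no filter 463, 634 and 42. A 1.5-fold limit gave 234 higher and 552 lower. Library 1 of each sample alone gave 94 higher, and library 2 alone 177 lower and 18 with opposite responses, where the rule on separate libraries asks less. The cause of the changes with 1 RPKM added was not tested beyond the low levels given beside the genes. Leaving out each library in turn gave 60 to 76 higher, 97 to 126 lower and 11 to 13 with opposite responses. With 0.01 RPKM added, centring on the median, centring in classes of length, the transcript table and the size limit alone, each count stayed within 1.5 times its value. The number of cholesterol and fatty acid genes with a response at least 1.5-fold lower in Toledo, an alternative chosen after seeing the data, was 5 with at least 5 RPKM in DMSO and 8 to 11 otherwise. For lowly expressed genes, the depth limits D to what a few reads per library give.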

Other observations

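Genes outside the lists, chosen after their values were seen, also differed. SCD5, a stearoyl-CoA desaturase like SCD, had a D of -2.22. It was at 7.70 and 7.31 RPKM with DMSO and 10.7 and 10.8 RPKM with JQ1 in SU-DHL-5, and fell from 1.29 and 1.30 to 0.358 and 0.303 RPKM in Toledo. At these Toledo levels, near or below 1 RPKM, its D depends on the added constant. SCD5 also rests on fewer than 100 reads in the higher library of a line. GBE1, the glycogen branching enzyme, rose in SU-DHL-5 from 18.5 and 26.4 to 57.3 and 57.5 RPKM and lay between 12.1 and 15.0 RPKM in all Toledo libraries (D of -1.33). VEGFA, an angiogenic growth factor, had a D of -1.45 and NQO1, a quinone reductase, a D of -1.49. ID2, an inhibitor of E proteins, rose in Toledo alone, from 27.9 and 30.0 to 63.1 and 61.8 RPKM, and lay between 22.7 and 28.5 RPKM in SU-DHL-5 (D of 1.08). RGS13, a regulator of G protein signaling in germinal center B cells, was at 100.1 and 115 RPKM with DMSO in SU-DHL-5 against 0.869 and 1.14 RPKM in Toledo, and its D of -1.72 rests on 7 reads with JQ1 in Toledo.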
